A study of Mus musculus with 2 samples.

Results

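The subject is the set of 8 mouse genes that carry out antigen presentation on MHC class II, the molecules that show peptides of ingested proteins to CD4+ T cells. The members were chosen by symbol and not by their values, and they are 8 of the 19059 genes measured. They are Ciita, Cd74, H2-Aa, H2-Ab1, H2-Eb1, H2-DMa, H2-DMb1 and Ctss. The tumors were grown in the brains of C57BL/6J mice from mGSC, a mouse glioblastoma stem cell line that is Trp53+/- and Nf1+/-. The mice received vehicle or Xevinapant, a SMAC mimetic that blocks inhibitor of apoptosis proteins, every day by mouth, and the mutations are shared by both groups. All tumors came from 1 cell line, so the tumor cells stand for that line only. By the labels, vehicle and Xevinapant samples were prepared as separate pools with different batch dates. Pool, batch and treatment therefore cannot be told apart, and the labels name total RNA for one group and polyA RNA for the other.

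Each group had 4 matrices of unique molecular identifier (UMI) counts, 56943 cell barcodes in all, with 71835789 to 300206053 UMIs and a median of 7452 to 14027 UMIs per barcode in a matrix. The tumor-cell counts of vehicle matrices 1 and 3, of Xevinapant matrices 1 and 2, and of Xevinapant matrices 3 and 4 were far closer to each other than those of the remaining pairs. Their median squared difference was 2.29, 6.42 and 7.89 times what sampling alone gives, and that of the remaining pairs within a group 29.8 to 89.2 times. These pairs were above sampling noise, and each was still summed to 1 sample, which left 3 vehicle and 2 Xevinapant samples. The study took cells from as many tumors per group as there are matrices, so each matrix may be 1 mouse, although nothing in the labels ties them together. Fits with each matrix as 1 sample stand among the processing alternatives. The p-values measure the spread between these samples, which may be technical. Matrices of the same number in the 2 groups shared 178, 321, 386 and 528 whole cell barcodes. On these barcodes the larger of the 2 UMI totals was in the median 160.5 to 171.8 times the smaller. Among the cells used here, 13 of 850 microglia, 18 of 1183 macrophages, 6 of 240 monocytes, 1 of 45 dendritic cells and 1116 of 37282 tumor cells sat on such a barcode. The counts of calls without them are given among the processing alternatives.

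Class II genes share a switch. CIITA, the product of Ciita, does not bind DNA itself but docks on RFX, CREB and NF-Y proteins that sit on a conserved promoter module, and without it class II genes stay nearly silent. Dendritic cells and B cells hold Ciita active, while macrophages, microglia and many non-immune cells raise it when they meet interferon-gamma. H2-Aa with H2-Ab1 encode the alpha and beta chains of the I-A molecule, and H2-Eb1 encodes the beta chain of I-E, whose alpha chain gene H2-Ea is defective in C57BL/6 mice. Cd74, the invariant chain, fills the groove until cathepsin S, the product of Ctss, trims it away in the endosome, and H2-DM, made from H2-DMa and H2-DMb1, then swaps the remaining fragment for a peptide.

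The promoters are shown because the module on which CIITA docks can be read in them. In GRCm38 H2-DMa lies at chr17:34119541-34139101, H2-DMb1 at chr17:34153072-34160230, H2-Ab1 at chr17:34257689-34269419 and H2-Eb1 at chr17:34305867-34316674, all on the plus strand. H2-Aa lies at chr17:34282744-34287823 on the minus strand, and these 5 genes span 197.1 kb. Ciita is at chr16:10480059-10528418 and Ctss at chr3:95526786-95556403, both on the plus strand. RefSeq promoter entries of GRCm38.p6 were used for 5 of the 8 members. The position and promoter of Cd74 are not reported here. The capitals below mark the letters CTNGNAACT, an X-box-like run, then TGATTGG, which holds the inverted CCAAT box of a Y box, and for Ctss 2 copies of GAAA set 2 bases apart, the form of an interferon response element.
H2-DMb1: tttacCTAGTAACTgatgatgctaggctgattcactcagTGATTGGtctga
H2-Aa: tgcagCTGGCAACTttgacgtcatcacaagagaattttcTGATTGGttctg
H2-Eb1: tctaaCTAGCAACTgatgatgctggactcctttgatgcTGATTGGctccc
Ctss: taaatGAAACCGAAAtgaaa
The stretches are chr17:34153089-34153139 on the plus strand for H2-DMb1, chr17:34287862-34287912 on the minus strand for H2-Aa, chr17:34305768-34305817 on the plus strand for H2-Eb1 and chr3:95526760-95526779 on the plus strand for Ctss. All 4 lie upstream of the start that the promoter entry uses. For H2-DMb1 that start is 119 bases inside the gene as annotated above, so its stretch overlaps the annotated gene. H2-DMa had 2 entries, both with starts inside the annotated gene, and neither held CTNGNAACT, TGATTGG or the paired GAAA. In the printed stretches of H2-DMb1, H2-Aa and H2-Eb1, 25, 25 and 24 bases separate the 2 capital runs. The letters were chosen after the members' sequences had been seen, so the matches describe these promoters and test nothing. Searched on both strands of the 250 bases before each start, CTNGNAACT occurred in 3.47% of 32851 promoters, TGATTGG in 7.23% and the paired GAAA in 2.98%. The pair, CTNGNAACT followed within 30 bases by TGATTGG, was searched on the strand of the gene only. It occurred in 5 promoters, 0.0152% of all, and these belonged to H2-Aa, H2-DMb1, H2-Eb1, 1700048F04Rik and BC051142.

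Cells were assigned to classes by UMIs on marker genes, and none of the 8 genes was used as a marker. The classes held 850 microglia, 1183 macrophages, 240 monocytes, 45 dendritic cells, 375 neutrophils, 44 B cells, 257 endothelial cells, 513 fibroblasts, 194 erythrocytes, 140 T and NK cells and 37282 tumor cells. Ptprc (CD45), which no gate used, was detected in 89.1% of microglia, 65.0% of macrophages, 93.8% of monocytes and 73.3% of dendritic cells. It was detected in 0.78% of endothelial and 2.18% of tumor cells. The dendritic cells carried Batf3 in 77.8%, Flt3 in 57.8%, Clec9a in 57.8%, Itgae in 48.9% and Ccr7 in 37.8%. They carried Xcr1 in 35.6%, Ccl22 in 33.3%, Il12b in 22.2%, Cd209a in 13.3% and Ccl17 in 4.44%. The gate used all of these, so the shares do not check the class. The monocyte markers Plac8, Fgr and Ccr2 were found in 48.9%, 37.8% and 33.3% of dendritic cells. The microglial and macrophage classes were not cleanly apart, since Ms4a7 was found in 92.9% of microglia and Fcrls in 57.7% of macrophages. A further 3409 cells with markers of more than 1 lineage or too much tumor RNA were left out as mixed, 9910 cells passed no gate and 93 were tied.

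Class II genes were highest in dendritic cells and B cells, then in monocytes, microglia and macrophages, and at or near the foot in endothelial and tumor cells. Levels are UMIs of the gene per 1000000 UMIs of the class (CPM), from counts summed per sample, and samples with fewer than 10 cells of a class were left out of means and tests. Such sums do not separate fewer expressing cells from less RNA per cell. Cd74 stood at 27086 and 29880 CPM in the dendritic cells of the 2 Xevinapant samples. The 5, 2 and 9 dendritic cells of the vehicle samples gave 28612, 3344 and 14552 CPM, too few cells to enter a mean. B cells of vehicle samples 1 and 2 gave 21490 and 18918 CPM. In monocytes Cd74 was 5339 and 10563 CPM in vehicle samples 1 and 3, and 11497 and 10980 in the Xevinapant samples. Each of these 3 classes lay apart from the next in the order of Cd74.

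Microglia held Cd74 at 1589, 2264 and 4619 CPM in the vehicle samples and at 2419 and 2789 in the Xevinapant samples. Macrophages held it at 1126, 1541 and 2373 CPM in vehicle and 908 and 1303 in Xevinapant. The ranges of the 2 classes overlapped, with means of 2736 ± 1139 (SD, n = 5) and 1450 ± 566 (SD, n = 5). Vehicle sample 3 was the highest of the 5 in both classes.

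The chains of I-A and I-E followed the order of Cd74. H2-Aa averaged 10873 ± 607 CPM in dendritic cells (SD, n = 2), 3420 ± 538 in monocytes (n = 4), 892 ± 446 in microglia (n = 5) and 429 ± 210 in macrophages (n = 5). H2-Ab1 averaged 14381 ± 901, 4551 ± 1191, 1103 ± 546 and 555 ± 243 CPM in the same classes. H2-Eb1 averaged 16437 ± 870, 4499 ± 757, 1039 ± 537 and 497 ± 228 CPM. For all 3 genes the microglial and macrophage samples overlapped, while dendritic cells and monocytes stood clear above them.

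Ciita, the regulator, had the widest gap between dendritic cells and macrophages of the 8 genes. It averaged 875 ± 379 CPM in B cells (SD, n = 2) and 829 ± 63.4 in dendritic cells (n = 2), which overlapped, and 240 ± 62.3 in monocytes (n = 4). In microglia it was 13.7, 23.4 and 26.6 CPM in vehicle and 11.4 and 19.5 in Xevinapant, and in macrophages 14.0, 6.67 and 17.7 against 5.72 and 15.8. Microglia and macrophages overlapped in Ciita, and both lay well below monocytes.

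H2-DMa, the alpha chain of the peptide editor, spanned a narrower range. It averaged 619 ± 27.1 CPM in dendritic cells (SD, n = 2), 366 ± 107 in monocytes (n = 4), 259 ± 52.5 in microglia (n = 5) and 92.1 ± 32.0 in macrophages (n = 5). H2-DMb1, its partner chain, averaged 332 ± 83.2, 149 ± 35.2, 66.0 ± 12.9 and 27.8 ± 4.03 CPM. B cells differed between the partners, with H2-DMa at 347 and 508 CPM and H2-DMb1 at 86.7 and 0 CPM, the former from 1 UMI. H2-DMb1 has a close paralog, H2-DMb2, and how well the assay tells the 2 apart was not tested.

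Ctss, the protease, did not follow the class II order. It was 6688, 5257 and 7929 CPM in vehicle microglia and 6678 and 6827 in Xevinapant microglia. Monocytes averaged 5062 ± 1303 CPM (SD, n = 4) and macrophages 4753 ± 1114 (n = 5), and the 3 classes overlapped. Dendritic cells, at 2096 and 2790 CPM, lay below all of them.

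**Figure D1:**
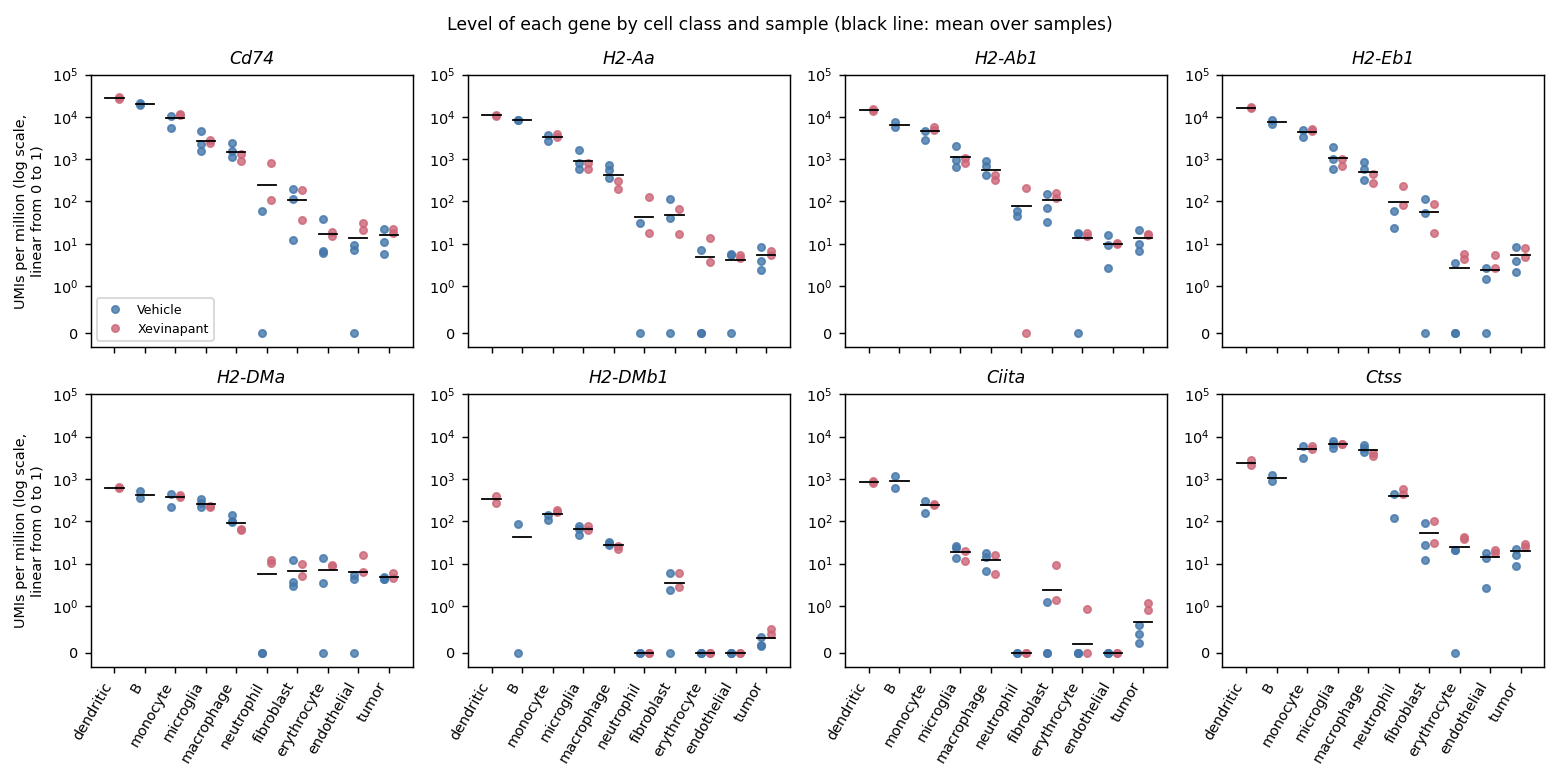
CPM of each of the 8 genes (log axis, linear from 0 to 1) in 10 cell classes, with 1 point per sample of at least 10 cells, vehicle in blue and Xevinapant in red, and a black line at the mean. Cd74 runs from 28483 CPM in dendritic cells down to 16.1 in tumor and 13.9 in endothelial cells, while Ctss peaks in microglia at 6676 CPM.

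The differences between classes were tested with edgeR's quasi-likelihood test on 12278 genes, with class and sample as terms and Benjamini-Hochberg adjustment. Between dendritic cells and macrophages, 7 of the 8 members were higher in dendritic cells, against 4.9% of all genes tested, and none was lower, against 5.31%. Both dendritic samples are Xevinapant samples. Ciita was 57.3-fold higher (log2 difference 5.84 ± 0.48 SE, edgeR adjusted p = 3.23e-11). The class II chains were 20.3- to 27.0-fold higher and Cd74 13.1-fold (log2 difference 3.71 ± 0.72, edgeR adjusted p = 0.00031). H2-DMa was 6.19-fold and H2-DMb1 9.80-fold higher. Ctss was the exception, at a log2 difference of -1.51 ± 0.54 that did not pass (edgeR adjusted p = 0.0663). The median log2 difference over all genes was -0.50. Without Xevinapant sample 2 the Cd74 difference was 3.42 and no longer passed (edgeR adjusted p = 0.0525).

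Monocytes and microglia differed in 5 of the 8 members, all higher in monocytes, where 8.35% of all genes were higher and 7.26% lower. Ciita was 12.4-fold higher in monocytes (log2 difference 3.63 ± 0.37 SE, edgeR adjusted p = 4.83e-09). H2-Aa, H2-Ab1 and H2-Eb1 were 3.97-, 4.12- and 4.33-fold higher, and H2-DMb1 2.31-fold. Cd74 had a log2 difference of 1.64 ± 0.59 that missed the threshold (edgeR adjusted p = 0.0526) and passed with library sizes in place of TMM (adjusted p = 0.0429). H2-DMa (0.57 ± 0.23, edgeR adjusted p = 0.085) and Ctss (-0.59 ± 0.39, adjusted p = 0.329) did not pass. H2-DMb1 lost its call without either Xevinapant sample (edgeR adjusted p = 0.0509 and 0.0726), and H2-DMa gained one without vehicle sample 1 (adjusted p = 0.0273).

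The members past the test between macrophages and microglia were the 2 chains of the peptide editor. H2-DMa was 2.96-fold lower in macrophages (log2 difference -1.56 ± 0.22 SE, edgeR adjusted p = 1.75e-06) and H2-DMb1 2.54-fold lower (-1.34 ± 0.26, adjusted p = 0.00059), where 4.27% of all genes were lower and 5.54% higher. The other 6 members had log2 differences of -0.45 to -1.04 with edgeR adjusted p from 0.1 to 0.514. Both classes carried markers of the other, as given above, and the part of this in the difference was not tested.

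The other genes of the pathway were followed as lists. Among the class II chains outside the 8, 4 of 4 tested were higher in dendritic cells than in macrophages and 4 of 4 higher in monocytes than in microglia. H2-Ob, a chain of the H2-DM inhibitor H2-O, had log2 differences of 6.66 ± 0.62 and 1.66 ± 0.47 SE. These genes rest on few UMIs. Of the 9 transcription factors that CIITA docks on and their co-factors, none passed in any of the 4 contrasts between classes, and their median log2 difference between dendritic cells and macrophages was 0.09.

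The endosomal enzymes were mixed in direction. Of 8 genes, 6 lysosomal proteases with the protease inhibitor Cst3 and the reductase Ifi30, 5 were lower and 2 higher in dendritic cells than in macrophages, with Ctsb, cathepsin B, at a log2 difference of -4.07 ± 0.50 SE and Ctsl, cathepsin L, at -4.60 ± 0.61. In monocytes 4 of the 8 were lower than in microglia and none higher, Lgmn (asparagine endopeptidase) at -1.44 ± 0.24 among them. In macrophages against microglia 1 was higher and none lower. No test compared this list with the class II chains.

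Co-stimulatory genes were higher in dendritic cells in 5 of 7 tested, with the T cell ligand Cd80 at a log2 difference of 4.26 ± 0.52 SE and Cd40 at 3.03 ± 0.45 against macrophages. Of the 10 genes of the interferon-gamma input, 3 were higher in dendritic cells, Jak2 (3.34 ± 0.33), Irf8 (2.77 ± 0.36) and Irf1 (2.02 ± 0.44). Monocytes exceeded microglia in 5 of these 10, Irf1 by 1.27 ± 0.26 and Socs1, an inhibitor of the pathway, by 1.77 ± 0.38. Of the 15 class I genes 7 were higher in dendritic cells, Tap1, a peptide transporter, by 1.97 ± 0.29.

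The Cd74 message was unevenly spread over macrophages and microglia. Cells were ranked by their raw UMIs of the gene, with all samples pooled and depth not equalized. The highest 10% of macrophages held 84.2% of the macrophage Cd74 UMIs, and the highest 10% of microglia held 61.4%. In the 45 dendritic cells that share was 21.5%. Ctss and H2-DMa were less concentrated in microglia, with 25.9% and 31.4% of UMIs in the highest 10% of cells, and an H2-DMa UMI was found in 77.1% of microglia. At least 1 UMI on all 4 of Cd74, H2-Aa, H2-Ab1 and H2-Eb1 was found in 88.6% of B cells, 84.4% of dendritic cells, 46.3% of monocytes, 40.4% of microglia and 16.7% of macrophages. The share was 0.82% in tumor cells, 304 cells of 37282, and 0.52% in erythrocytes. No endothelial cell of 257 held all 4, which allows a share of up to 1.17% for counting error.

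In microglia, macrophages and monocytes, cells with a Ciita UMI had more Cd74. In microglia, 103 cells had at least 1 Ciita UMI, and their Cd74 level was 10990, 11763 and 11861 CPM in the vehicle samples and 6943 and 7828 in the Xevinapant samples. It was higher than in the Ciita-negative microglia of the same sample in 5 of 5 samples, by 3.56 to 10.4 times with a median of 4.57. In macrophages only 39 cells had a Ciita UMI, and the ratio was 10.4 to 19.9 with a median of 14.7, again in 5 of 5 samples. In monocytes it ran from 4.10 to 77.7 with a median of 9.45, and vehicle sample 2 rests on 1 Ciita-positive monocyte. H2-Ab1 was higher in the same cells, with ratios of 4.31 to 11.9 in microglia and up to 19.2 in macrophages.

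In microglia and macrophages the ratio was smaller for H2-DMa and Ctss. H2-DMa was 1.04 to 2.59 times higher in the Ciita-positive microglia and 3.78 to 10.9 times in the macrophages. For Ctss it was 0.638 to 1.77 in microglia, higher in 4 of 5 samples, and 1.40 to 2.70 in macrophages. The median UMI count of Ciita-positive cells was 5213 to 11393 in microglia, and the part of depth and of droplets that held 2 cells was not tested. In dendritic cells, with 1 to 11 cells on each side of a sample, H2-Ab1 and H2-DMa were higher in the Ciita-positive cells in 5 of 5 samples, by at least 1.95 and 6.59 times wherever the other cells held a UMI. Cd74 was 0.989 to 7.69 times as high and above 1 in 4 of 5 samples, and Ctss was 0.401 to 4.63 times as high and above 1 in 3 of 5. A cell without a Ciita UMI need not lack the gene at this depth.

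**Figure D2:**
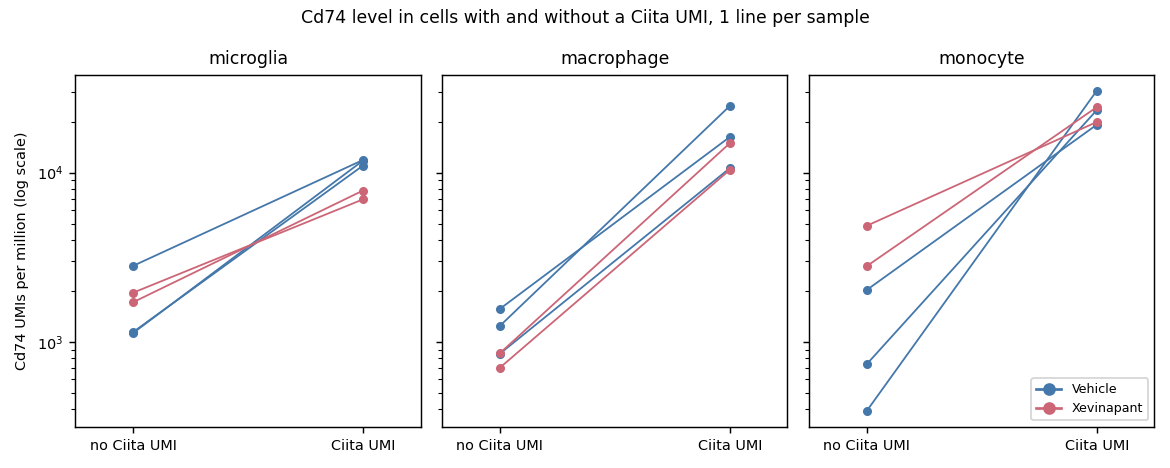
Cd74 level in CPM (log axis) in cells without and with a Ciita UMI, for microglia, macrophages and monocytes, with 1 line per sample in blue for vehicle and red for Xevinapant. Every line rises, with median ratios of 4.57, 14.7 and 9.45.

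The classes with the highest levels were rare and held a small part of the message. Of all UMIs on the 8 genes, microglia held 24.3% on average over the 5 samples while making up 1.54% of cells. Macrophages held 14.8% with 2.35% of cells, and monocytes 7.06% with 0.44%. These shares varied between samples. Microglia held 25.03%, 30.8% and 27.7% in vehicle and 16.9% and 21.1% in Xevinapant, and monocytes 3.44%, 1.64% and 2.99% against 16.8% and 10.4%. Macrophages held 6.99% to 23.6%, and in Xevinapant sample 1 they held more than microglia. Dendritic cells held 2.32% with 0.08% of cells, and B cells 0.90% with 0.09%. Tumor cells held 8.11% with 68.2% of cells. The mixed cells held 22.97% and the cells that passed no gate 16.4%. Ctss had the most UMIs of the 8 genes in each sample, so these shares lean on a gene that did not follow the class II order. For Cd74 alone, monocytes of Xevinapant sample 1 held 7718 of 32480 UMIs and microglia 4677. In the other samples microglia held more Cd74 UMIs than monocytes.

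**Figure D3:**
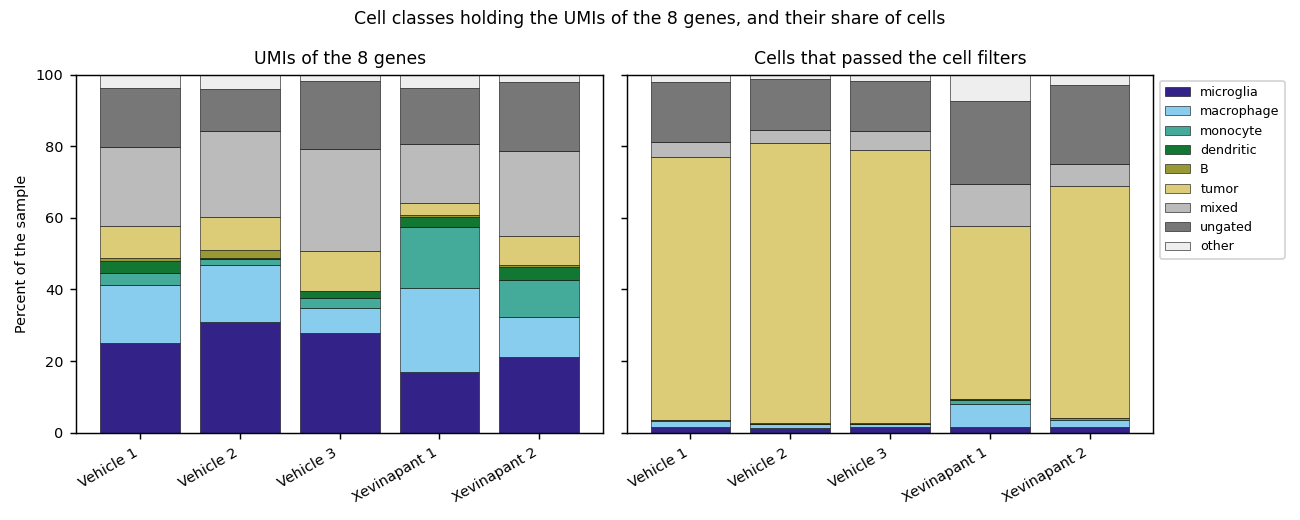
Percent of each sample's UMIs on the 8 genes (left) and percent of its cells (right) by cell class, with 1 stacked bar per sample. Microglia, macrophages and monocytes take a large part of the left bars and a small part of the right ones, where tumor cells hold 48.2% to 78.3%.

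Tumor cells had low but countable class II message. Cd74 was 11.0, 5.75 and 22.2 CPM in the vehicle samples and 18.5 and 22.99 in the Xevinapant samples. That is 0.61% of the microglial level with all samples summed. The other class II chains stood at 0.58% to 1.29% of the microglial level, H2-DMa at 1.82%, H2-DMb1 at 0.47%, Ciita at 3.27% and Ctss at 0.30%. Genes of the myeloid lineage were also found in tumor cells, Lyz2 at 0.34% and C1qa at 0.14% of microglia.

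Erythrocytes, which should lack all of these genes, were close to tumor cells. Their Cd74 level was 0.65% of the microglial level, H2-Ab1 1.30%, H2-DMa 3.13% and Ctss 0.50%. At least 1 Cd74 UMI was found in 14.9% of erythrocytes at a median of 2381 UMIs per cell. It was found in 14.2% of tumor cells at 11891 UMIs and in 12.1% of endothelial cells at 3502 UMIs. It was found in 68.7% of microglia at 7791 UMIs and in 45.7% of macrophages at 5664 UMIs. After each cell was thinned to 3000 UMIs, with shallower cells left out, Cd74 was found in 1.38% to 5.23% of tumor cells over the 5 samples. In the 3 samples with at least 10 such erythrocytes it was found in 9.77%, 2.52% and 2.46% of 13, 47 and 17 cells. In the 2 Xevinapant samples the share was 4.95 ± 0.39% in tumor cells (SD, n = 2), above the 2.52% and 2.46% in erythrocytes. In vehicle sample 3 the erythrocytes gave 9.77%. Over all samples the shares in tumor cells overlapped those of this cell type, which should lack the gene, and no expression is read from them. The erythrocyte class also carried tumor markers, with Ptprz1 in 50.5% and Olig2 in 39.2% of its cells. It is therefore not a clean reference, and the part of this in the overlap was not tested. Within the tumor class the message was uneven, since the 274 cells with a Ciita UMI held Cd74 at 175.6 CPM (median 17768 UMIs per cell) against 16.2 CPM in the other 37008 (median 11852.5 UMIs). All 4 genes were found in 304 tumor cells and in 1 of 194 erythrocytes. The part of free RNA and of droplets with 2 cells in these values was not tested. The class I genes, by contrast, stood at 17.6% (B2m), 12.8% (H2-K1) and 13.9% (H2-D1) of the microglial level in tumor cells, with 12.2%, 10.7% and 6.82% in erythrocytes.

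Endothelial cells gave little above that level. Their Cd74 UMIs were 2, 0 and 5 in vehicle and 12 and 23 in Xevinapant, from 29, 29, 55, 54 and 90 cells. No UMI of Ciita or H2-DMb1 was found in 257 endothelial cells, which allows up to 1.17% of cells with a UMI. Neither gene's level can be given as a fold. Against tumor cells none of the 8 members passed, where 14.1% of all genes were higher and 10.4% lower in endothelial cells, and Cd74 had a log2 difference of -0.15 ± 0.73 SE (edgeR adjusted p = 0.926). Of the 15 class I genes 12 were higher in endothelial than in tumor cells, Tap1 by 1.24 ± 0.21 and H2-Q7 by 4.02 ± 0.50, and Cd40 was higher as well.

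Fibroblasts held Ciita at 18.95% of the microglial level with all samples summed, from 8 cells with a Ciita UMI. Most of it lay in Xevinapant sample 2, since the Ciita UMIs were 0, 0 and 1 in vehicle and 3 and 17 in Xevinapant. The 8 cells held Cd74 at 2432 CPM, against 47.4 CPM in the other 505, and Ctss at 964 against 33.4 CPM. The part of droplets with 2 cells in these values was not tested. H2-Ab1 reached 10.8% of the microglial level in fibroblasts, against 3.94% for Cd74, 5.28% for H2-Aa and 0.87% for Ctss. A UMI on all 4 genes was found in 2.73% of the 513 fibroblasts. In neutrophils, of 375 cells, Ciita and H2-DMb1 had no UMI, which allows up to 0.8% of cells with a UMI at a median of 1405 UMIs.

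**Figure D4:**
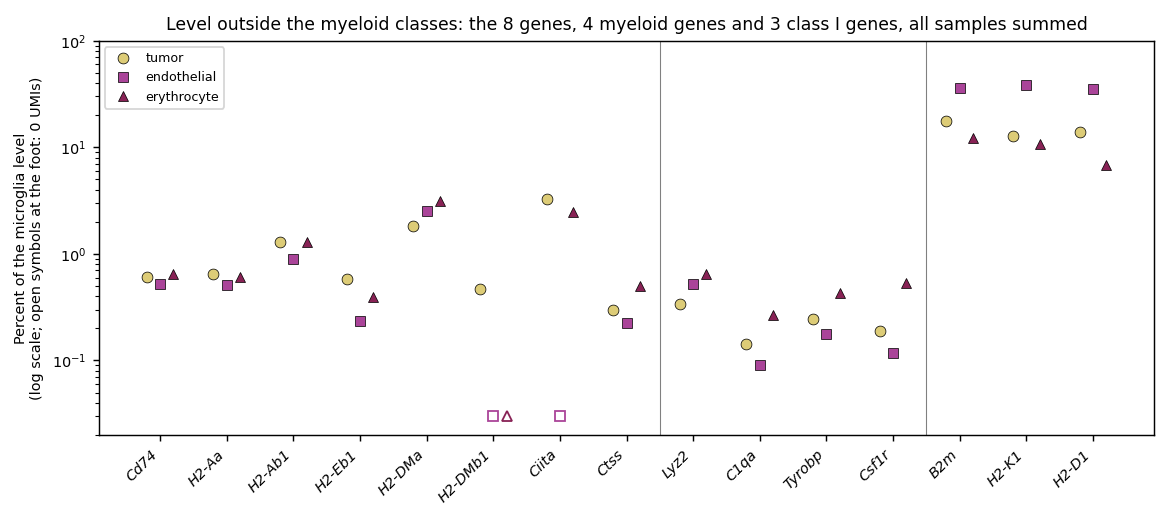
Level of the 8 genes, 4 myeloid genes and 3 class I genes in tumor, endothelial and erythrocyte sums as percent of the microglial level (log axis, all samples summed, open symbols at the foot for 0 UMIs). The class II and myeloid genes lie between 0.09% and 3.27% with no clear order among the 3 classes, and the class I genes between 6.82% and 38.2%.

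Genes whose level followed the 8 were named by correlation over 48 sums of a class in a sample, with log2 CPM against the mean of the 8 over 13001 genes. The 8 members themselves had Pearson r of 0.878 (Ctss) to 0.973 (H2-Aa) with that mean, of which each is a part. Between pairs of members r ran from 0.689 for Ciita with Ctss to 0.941 for H2-Aa with H2-Eb1. The 10 most alike genes outside the 8 were Fgd2 and Pld4 (both 0.936), Ifi30 (0.925), Cybb (0.909), Cd180 (0.902), Cd72 (0.901), Pou2f2 (0.897), March1 (0.887), Rubcnl (0.887) and Rnase6 (0.886). Ifi30 reduces disulfides of antigens in the lysosome, and March1 is a ubiquitin ligase that removes class II from the surface. The sums of a sample share its library and sums of a class share its depth, so these values are descriptions across classes.

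The comparison of Xevinapant with vehicle asked whether treatment moved these genes within a class. None of the 8 members passed in the 6 classes that were fitted, microglia, macrophages, monocytes, neutrophils, endothelial and tumor cells, by edgeR's quasi-likelihood test. Fibroblasts, erythrocytes, B cells and T and NK cells were not fitted for treatment. The share of all genes past the threshold was 0% in microglia (10939 genes tested), macrophages (10231), endothelial cells (8634) and tumor cells (14355), 3.01% in monocytes (7274, 1.17% higher and 1.84% lower in Xevinapant) and 1.94% in neutrophils (3609, 0.111% higher and 1.83% lower). At an unadjusted p under 0.05 the count of members was 0 in microglia, 3 in macrophages, 0 in monocytes, 2 in neutrophils and 1 in tumor cells, where 5.20%, 5.62%, 16.7%, 22.2% and 11.0% of all genes tested lay under it. DESeq2 called 0 in each of these classes, with 0, 6, 0, 0 and 1 members at an unadjusted p under 0.05 and 2.22%, 3.78%, 6.59%, 13.1% and 12.9% of all genes. No member had enough counts to be tested in endothelial cells, and only Cd74, H2-Eb1 and Ctss had in neutrophils. Dendritic cells had no vehicle sample with 10 cells, so no treatment test was made there.

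Microglia gave no separation. Their Ctss was within 0.01 ± 0.23 (SE) of 0 on the log2 scale, and Cd74 differed by -0.14 ± 0.45 (edgeR adjusted p = 0.988). H2-Ab1 was 640, 968 and 2036 CPM in vehicle and 800 and 1070 in Xevinapant, so the Xevinapant samples lay within the vehicle range. H2-DMa was 223, 275 and 344 CPM against 233 and 219.

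In macrophages all 8 members had lower fitted levels in Xevinapant, and none passed. H2-Aa was 360, 547 and 730 CPM in the vehicle samples and 199 and 308 in the Xevinapant samples, without overlap. The log2 change was -1.14 ± 0.32 SE (edgeR adjusted p = 0.552). H2-DMa was 94.3, 100.1 and 140 CPM against 61.0 and 64.7, again without overlap (-0.86 ± 0.21, edgeR adjusted p = 0.468). H2-Ab1 was 423, 704 and 909 CPM against 323 and 417, with a change of -0.90 ± 0.32 (edgeR adjusted p = 0.804). Cd74 overlapped between the groups (-0.63 ± 0.36, edgeR adjusted p = 0.97). Ctss was 6421, 4434 and 5240 CPM in vehicle and 4120 and 3551 in Xevinapant (-0.51 ± 0.36). H2-Eb1 (-0.74 ± 0.37), H2-DMb1 (-0.34 ± 0.25) and Ciita (-0.39 ± 0.54) had smaller differences than H2-Aa, with edgeR adjusted p of 0.931 to 0.989. The calls depend on the count filter, since with no filter on low counts H2-Aa (adjusted p = 0.0106) and H2-DMa (0.0457) passed in edgeR, with 1.53% of all genes.

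The share of macrophages with a class II UMI, which rests on the same counts as the levels, was compared at equal depth. Thinned to 3000 UMIs, any of the 5 chains was found in 55.3%, 60.2% and 74.2% of vehicle macrophages and in 42.2% and 46.7% of Xevinapant macrophages. The means were 63.2 ± 9.83% and 44.4 ± 3.22% (SD, exact two-sided permutation p = 0.2, the smallest that 3 against 2 samples allow here). Without thinning they were 68.9 ± 6.90% and 59.2 ± 3.08% (exact permutation p = 0.4). H2-DMa was found in 24.0%, 28.9% and 40.6% against 18.1% and 16.8% of the thinned cells. The thinned shares of H2-Aa, H2-Ab1 and Ctss were also without overlap, and the share of all genes without overlap was not counted. Those of Cd74, H2-Eb1 and H2-DMb1 (exact permutation p = 0.4 each) and of Ciita (exact permutation p = 0.8) overlapped between the groups. The thinning left out 63, 25 and 40 of the 157, 73 and 113 vehicle macrophages and 156 and 70 of the 568 and 272 Xevinapant macrophages.

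Monocytes had positive fitted changes in all 8 members, and none passed. Cd74 changed by 0.61 ± 0.39 SE (edgeR adjusted p = 0.468) and H2-DMb1 by 0.64 ± 0.32 (adjusted p = 0.324). Vehicle sample 1, with 18 monocytes, was the lowest in 8 of 8 genes. Without vehicle sample 3, which leaves that sample as the only vehicle one, Cd74 rose by 1.24 on the log2 scale and passed (edgeR adjusted p = 0.0379), as did 6.9% of all genes in that fit. The difference between the changes in monocytes and in macrophages was tested and passed for none of the 8, where 20 of 9407 genes passed. The lowest edgeR adjusted p of the 8 was 0.169, for H2-DMa (1.46 ± 0.38). The same test of macrophages against microglia gave 0.878 or more for the 8, with 0 of 10596 genes past the threshold. That of tumor cells against microglia gave 0.483 or more, with 0 of 13311 genes past it.

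In neutrophils Cd74 had 0 and 4 UMIs in vehicle samples 1 and 3 and 312 and 18 in the Xevinapant samples. The log2 change was 4.03 ± 1.20 SE (edgeR adjusted p = 0.102). Most of it lay in 1 sample, and 89.5% of the Cd74 UMIs were in the highest 10% of neutrophils. Of 375 neutrophils, 72 had a Cd74 UMI and 2 had 10 or more, while 1 had 10 or more of H2-Eb1. Without thinning, the mean share of cells with a Cd74 UMI was 9.09% in vehicle and 19.8% in Xevinapant. For H2-Eb1 and Ctss the share was lower in Xevinapant, at 2.87% against 15.96% and 42.2% against 49.3%. Their fitted log2 changes were 1.99 ± 0.77 SE and 0.82 ± 0.66. The exact permutation p was 0.667 for each of these shares. Leaving out vehicle sample 1 let Cd74, H2-Eb1 and Ctss pass (edgeR adjusted p = 0.0259, 0.0365 and 0.0014) in a fit that called 26.8% of all genes, and leaving out Xevinapant sample 1 left 1 member to test and none past.

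Tumor cells showed higher fitted levels of all 8 members in Xevinapant, at the low levels described above. Ciita was 0.583, 0.217 and 0.407 CPM in vehicle and 1.15 and 0.906 in Xevinapant, which did not overlap (log2 change 1.28 ± 0.46 SE, edgeR adjusted p = 0.425). Ctss was 15.5, 8.83 and 22.3 against 28.6 and 24.6 CPM (0.70 ± 0.36, edgeR adjusted p = 0.492). Thinned to 3000 UMIs, Ctss was found in 4.32 ± 1.50% of vehicle and 7.53 ± 0.72% of Xevinapant tumor cells (SD, exact permutation p = 0.2, the smallest possible). Macrophages made up 1.73%, 1.02% and 0.79% of cells in the vehicle samples and 6.41% and 1.79% in the Xevinapant samples, and monocytes 0.20%, 0.08% and 0.21% against 1.13% and 0.57%. Myeloid genes in tumor cells were also higher in the Xevinapant samples. As percent of the microglial level in the same sample, Fcer1g was 0.27, 0.23 and 0.35 in vehicle and 0.56 and 0.53 in Xevinapant, and Lyz2 0.24, 0.19 and 0.33 against 0.65 and 0.41. On this scale both Xevinapant samples lay above all vehicle samples for 8 of 9 myeloid genes and for 6 of the 8 members. The same held for 0 of 3 class I genes, and the share over all genes was not counted. The scale divides by the microglial level. In the tumor cells' own CPM, Cd74, H2-Aa, H2-Ab1, H2-Eb1 and H2-DMa overlapped between the groups. In erythrocytes Ctss was 20.4, 0 and 20.9 CPM in vehicle and 43.3 and 37.9 in Xevinapant, while their mean Cd74 level was 16.99 ± 18.4 against 17.2 ± 2.28 CPM (SD, n = 3 and 2). The part of RNA from other cells in the tumor values was not tested.

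**Figure D5:**
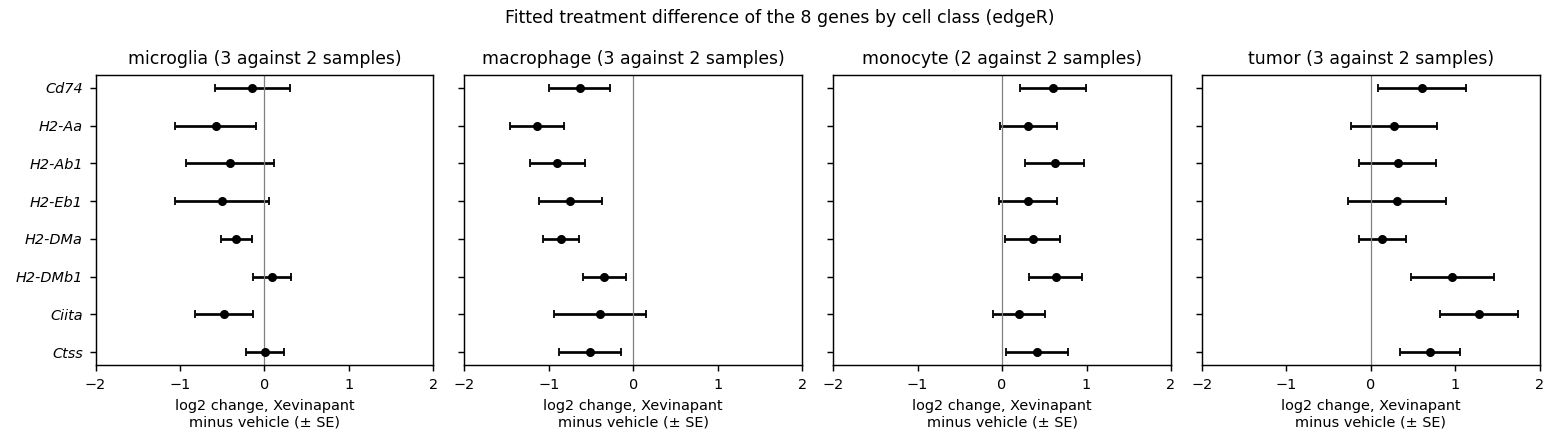
Fitted log2 change (Xevinapant minus vehicle, edgeR, point with a bar of 1 SE to each side) of the 8 genes in microglia, macrophages, monocytes and tumor cells. Macrophages lie left of 0 (-0.34 to -1.14) and monocytes and tumor cells right of it (0.14 to 1.28), and no gene passes the adjusted threshold.

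In endothelial cells the share with a Cd74 UMI was 1.96%, 0% and 2.90% in vehicle and 10.0% and 6.20% in Xevinapant after thinning to 3000 UMIs (exact permutation p = 0.2, the smallest possible). These rest on 11, 18 and 26 against 27 and 57 cells. Thinned to 1500 UMIs the groups overlapped (1.54 ± 1.94% against 4.21 ± 0.87%, SD, exact permutation p = 0.4), as did the share with any of the 5 chains at 3000 UMIs (5.71 ± 5.41% against 9.86 ± 1.85%, exact permutation p = 0.6). Erythrocytes gave 9.77% in vehicle sample 3 and 2.52% and 2.46% in the Xevinapant samples, from 13, 47 and 17 cells, and vehicle samples 1 and 2 had only 7 and 6 such cells.

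In fibroblasts the share with an H2-Ab1 UMI was 19.3% to 28.6% in the 3 vehicle samples and 31.5% and 31.1% in Xevinapant, without overlap. Thinned to 3000 UMIs it was 11.7%, 12.6% and 16.7% against 20.9% and 18.7% (exact permutation p = 0.2, the smallest possible). No other member of the 8 reached this p in the thinned fibroblasts. The thinned Cd74 share overlapped, at 9.59 ± 5.24% in vehicle (SD, n = 3) and 6.61 ± 5.17% in Xevinapant (n = 2), with an exact permutation p of 0.4.

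Summed over all cells, where cell makeup and level per cell are joined, all 8 members were higher in Xevinapant and none passed (0% of 15159 genes past the threshold by edgeR, 4 members at an unadjusted p under 0.05, as were 16.7% of all genes). Cd74 was 84.2, 56.4 and 158 CPM in vehicle and 258 and 171 in Xevinapant (log2 change 1.05 ± 0.42 SE, edgeR adjusted p = 0.293). Ciita was 1.64, 1.03 and 2.03 CPM against 4.71 and 3.41 (1.31 ± 0.39, edgeR adjusted p = 0.246). DESeq2 called Ciita (adjusted p = 0.037) and 4.7% of all genes. Ciita was also called by edgeR, with 9.16% of all genes, with each of the 8 matrices as 1 sample (adjusted p = 0.0308), a fit that treats the close pairs of matrices as independent samples.

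The gene lists of the pathway gave no treatment calls. Of the 6 lists, no gene passed in either direction in any of the 7 sets of cells by edgeR. The co-stimulation list had a median log2 change of -0.58 in macrophages, beside 0.00 for all genes, and the class I list 0.65 in endothelial and 1.26 in neutrophils.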

How the data were processed

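The authors deposited 8 matrices of raw UMI counts per gene and cell, 4 per group, without normalization, from a 10x Genomics probe-based kit for fixed cells. Per the file headers Cell Ranger 7.1.0 made them, while the submitters' processing notes name Cell Ranger 3.0, Seurat 4.0 and mm10. The names of the Xevinapant matrices say Vehicle, and groups were taken from the sample labels. The 8 members, the marker lists and the gene lists were chosen with earlier results of these data known.

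Cells with fewer than 200 genes, over 10% of UMIs on mitochondrial genes, or a ratio of log10 genes to log10 UMIs under 0.8 were removed. Doublets were not removed in the main results. A cell entered a non-tumor class with a UMI on at least 3 of its markers. Dendritic cells took precedence over other myeloid classes, and among those the class with the larger share of its markers detected was taken. Cells with markers of several lineages, or with tumor-marker UMIs per 10000 above 0.5 of the tumor median, were set aside as mixed. Tumor cells needed 3 tumor markers and at most 1 marker of any immune or endothelial class. They also needed fewer than 3 markers of the fibroblast, pericyte and erythrocyte classes. After the data were seen, 5 markers found in over 25% of tumor-like cells (Sall1, Zbtb46, Snx22, Col1a1 and Notch3) were dropped from their classes, since Zbtb46 and Snx22 let tumor cells into the dendritic class. The gate as first written was kept as an alternative.

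Counts were summed per class and sample, with at least 10 cells, and tested with edgeR 4.0.16 (TMM, its filter on low counts, robust quasi-likelihood fit) with Benjamini-Hochberg adjustment over all genes tested at 0.05. The standard error is the log2 change divided by the root of the F statistic. Differences between the changes in 2 classes were tested on the samples' paired sums. Shares of cells were compared after thinning to 3000 UMIs, as the exact expectation per cell, by permutation tests (exact, two-sided, scipy 1.17.1), which cannot go below 0.2 for 3 against 2 samples and 0.333 for 2 against 2. Limits for counts of 0 take 3 counts and cover counting error only. Correlations used log2(CPM + 1) over genes that reached 20 CPM. The count tests were tested on simulated data.

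The rule for named genes took all 8 members, of each list up to 4 genes past the threshold by smallest p, and the 10 most correlated genes. H2-Ea was not analysed here. The alternatives tried were DESeq2 1.42.0, plain library sizes in place of TMM, keeping genes with low counts, each of the 8 matrices as 1 sample, 4 markers, a stricter tumor limit, removal of the highest Scrublet scores (0.8% per 1000 barcodes, scanpy 1.11.5), other thinning and leaving out each sample. The gate as first written, leaving out shared barcodes and a block for the matrix number were chosen after seeing the data. Versions were R 4.3.3, Python 3.11.15, pandas 2.3.3, numpy 2.4.6 and matplotlib 3.10.9.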

Additional observations from a re-analysis of the deposited data

Results flagged for a closer look

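Cells that the comparisons of classes set aside held a large part of the class II message. Cells with markers of more than 1 lineage, or with too much tumor RNA for a non-tumor class, held 22.97% of the UMIs on the 8 genes on average (16.5% to 28.5% over the 5 samples) while making up 6.27% of cells. Cells that passed no gate held 16.39% (11.7% to 19.3%) with 18.0% of cells. Both lie outside the comparisons of cell classes and enter the sums over all cells, and the cell types behind them were not tested.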

How the results depend on the processing

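In microglia, endothelial and tumor cells 0 members were called under every alternative that was run, though most endothelial fits had no member to test. The count of members called in macrophages was 2 with no low-count filter. In monocytes it was 0 to 1 over the fits that left out 1 sample. In neutrophils it was 2 with no low-count filter, 1 with the highest Scrublet scores removed, and 0 to 3 over the fits without 1 sample. In all cells it was 1 by DESeq2 and 1 with each matrix as a sample. No direction of a called value reversed. Between classes the counts stayed at 6 to 7 for dendritic cells against macrophages, 2 for macrophages against microglia and 4 to 6 for monocytes against microglia. Shares of cells cannot reach 0.05 in this design at any thinning, so their lack of calls says nothing on stability. A fit with 1 sample in a group assumes that this sample varies like the others.

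Counts over all genes moved more. DESeq2 called 2 genes in microglia, 35 in macrophages, 10 in endothelial cells, 209 in tumor cells and 712 in all cells, where edgeR called 0, and 84 in monocytes against 219. With no low-count filter edgeR called 58, 245 and 160 in microglia, macrophages and endothelial cells, 466 in monocytes, and 208 in neutrophils against 70. With each matrix as a sample it called 6 in macrophages, 18 in monocytes, 0 in neutrophils, 2 in endothelial cells, 460 in tumor cells and 1345 in all cells. With 4 markers it called 6 in macrophages, 185 in neutrophils and 16 in endothelial cells, and with the stricter tumor limit 6 in monocytes and 2 in neutrophils. Neutrophils gave 134 without TMM and 382 with the highest Scrublet scores removed. The gate as first written gave 130 in monocytes and 0 in neutrophils. Leaving out 1 sample gave 0 to 6 in microglia, 0 to 12 in macrophages, 71 to 604 in monocytes, 0 to 1612 in neutrophils, 0 to 42 in endothelial cells and 0 to 620 in all cells. The cause of these shifts was not tested. Treatment in dendritic cells could be fitted only with the gate as first written (8 members tested, 0 called, 3 at an unadjusted p under 0.05, as were 9.59% of genes), a gate that let in tumor cells. The other alternatives were not run there because no vehicle sample held 10 cells. Without the shared barcodes 0 members were called in each set of cells, with 223 genes in monocytes and 65 in neutrophils. No paired analysis was possible for the 5 samples because the labels number no samples within a group, and the 3 and 2 joined samples have no partners. With each matrix as a sample and the matrix number as a replicate block, added after seeing the data, 0 members were called, and 2 genes in microglia, 0 in macrophages, 52 in monocytes, 3 in neutrophils, 17 in endothelial cells, 8 in tumor cells and 0 in all cells. Same-numbered matrices did not deviate together in tumor cells (correlations of 0.229, -0.059, -0.167 and 0.173), and apart from the shared barcodes given above nothing ties them to each other. The few cells of the rare classes limit what can be seen, above all in dendritic, B and endothelial cells.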
